A study of Mus musculus with 24 samples.

Results

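Non-endothelial cells of embryonic day (E) 12.5 livers were compared between 3 Chd4-ECko and 3 control libraries, 6 of the 24 libraries of the series. They were chosen by their labels alone: the Chd4-ECko and control genotypes of the fraction left after cells binding CD146 MicroBeads had been taken out as liver sinusoidal endothelial cells (LSECs). Chd4-ECko embryos were Chd4fl/fl;Brg1fl/+;VE-cadherin-Cre+, so CHD4 was removed from endothelium and 1 Brg1 allele was floxed as well. Controls were littermates that carried the floxed alleles without Cre. The other non-EC libraries, used for comparison, came from 3 Brg1-ECko (Chd4fl/+;Brg1fl/fl;VE-cadherin-Cre+) and 3 Brg1/Chd4-ECdko embryos (both genes homozygous floxed, Cre+). All were mouse embryos of mixed background, with male and female embryos analysed together. VE-cadherin-Cre is also active in some blood cells, so the cells studied here may include some that carried the deletion. Expression was given as TPM, transcript abundance scaled to the same total in each library, which keeps no read depth, so no counting interval could be set beside a value.

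The E12.5 liver is a blood-forming organ as well as the place where hepatoblasts, the precursors of hepatocytes and bile duct cells, mature. Hepatoblasts secrete plasma proteins and take up the synthesis of lipids and the breakdown of amino acids under a set of liver transcription factors that includes HNF4A, the FOXA proteins and CEBPA. Erythroblasts, macrophages, megakaryocytes and progenitors surround them, and sinusoidal endothelium lines the channels between them. CHD4 is the remodelling ATPase of the NuRD complex and BRG1 (encoded by Smarca4) that of the BAF complex. In this comparison endothelium carried the deletion and the RNA came from the cells beside it.

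The fraction matched its label. The summed TPM of 20 endothelial marker genes was 72.2 to 105 in control and 91.1 to 97 in Chd4-ECko non-EC libraries, against 2242 to 2991 in control LSECs. Hepatoblast markers summed to 17310 to 19220 TPM in control non-EC libraries, against 3383 to 6898 TPM in control LSECs. Erythroid genes summed to 4247 to 6803 TPM there, although red cells had been lysed during isolation. Chd4 itself was at 370.3, 350.0 and 378 TPM in controls and 353, 328 and 328 TPM in Chd4-ECko non-EC cells. The difference did not pass limma's test on log2(TPM + 1) with Benjamini-Hochberg adjustment (log2 fold change -0.12 ± 0.07, standard error, adjusted p = 0.269). Smarca4 was at 189, 183 and 185 TPM in controls and 161, 161 and 174 TPM in Chd4-ECko cells (adjusted p = 0.131). Cre acts mainly in endothelium, which had been taken out of this fraction, and whole-gene TPM also counts transcripts that lack the floxed exons. These 2 genes therefore cannot check the genotype labels here.

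The 3 Chd4-ECko libraries were not alike. Replicate 1 lay near the controls on the first principal component of the 12 non-EC libraries (46.3% of variance), at -15 against -24.1, -4.2 and -27.7 for controls, and replicates 2 and 3 lay at 29.4 and 57.5. On the second component (19.05% of variance) replicate 1 lay further from the controls than replicates 2 and 3. It was at 19.2, against -14.9, -33.1 and -12.5 for controls and -4 and -6.4 for replicates 2 and 3. Replicates 2 and 3 correlated with each other at r = 0.987 across genes, and replicate 1 with them at 0.975 and 0.951. Mitochondrially encoded genes took 7.37% of TPM in replicate 1, 3.43% in replicate 2 and 2.33% in replicate 3, against 6.17% to 7.69% in controls. In replicates 2 and 3 long genes were low and short genes were high: the median log2 difference from the control mean went from 0.20 in the shortest of 10 equal classes of genes to -0.28 in the longest in replicate 2, and from 0.27 to -0.48 in replicate 3. In replicate 1 it stayed between -0.031 and 0.009 in all 10 length classes. Control replicate 2 also had a fall, from -0.02 in the shortest class to -0.192 in the longest. Control replicates 1 and 3 went from 0.01 each to 0.088 and 0.101. The summed TPM of 4 Y-linked genes was 53.4, 23.9 and 2.63 in Chd4-ECko replicates 1 to 3 and 71.5, 109 and 74.6 in controls, so Y-linked RNA also differed between the groups. In LSECs of Chd4-ECko replicates 1 to 3 the sum was 66.4, 64.7 and 1.34 TPM, and the sex of each embryo was not settled here. The parts of length, mitochondrial share and sex in the results were not tested beyond the values given beside them.

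**Figure D1:**
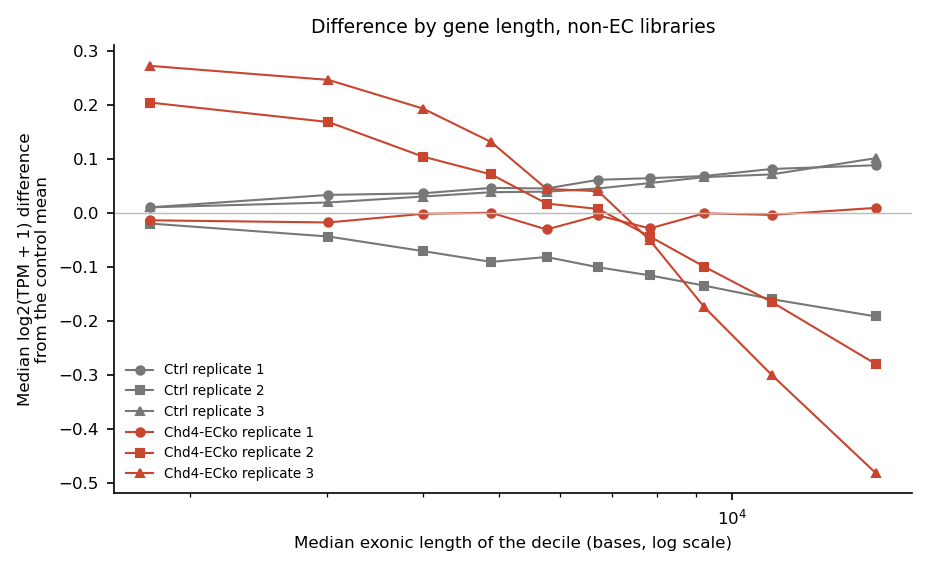
Median log2(TPM + 1) difference from the control mean (vertical) against the median exonic length of genes in bases (horizontal, log scale), in 10 classes of gene length, for 3 control (grey) and 3 Chd4-ECko (red) non-EC libraries. Chd4-ECko replicate 1 stays near 0 over all classes, whereas replicates 2 and 3 end at -0.28 and -0.48 for the longest genes.

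Of 12223 genes tested, 754 were higher (6.17%) and 405 lower (3.31%) in Chd4-ECko than in control non-EC cells at an adjusted p under 0.05. With a log2 fold change above 1 as well, 53 were higher (0.434%) and 55 lower (0.450%). All 3 Chd4-ECko libraries lay above all 3 controls for 15.8% of the genes tested and below them for 11.6%. Control and Chd4-ECko values did not overlap for 751 of the 754 higher and 398 of the 405 lower genes. A lack of overlap therefore adds little for a gene already called. The higher and the lower genes behaved differently across replicates. The 53 higher genes had a median log2 difference from the control mean of 1.14 in replicate 1, 1.02 in replicate 2 and 1.2 in replicate 3. The 55 lower genes had medians of -0.52, -1.25 and -1.69. The lower genes were also longer, with a median exonic length of 6493 bases against 3896 bases for the higher and 6231 for all tested genes. Leaving out a single library moved these counts. Without Chd4-ECko replicate 1 there were 65 higher and 949 lower genes, without replicate 2 there were 71 and 9, and without replicate 3 there were 28 and 3. Without control replicate 1, 2 or 3 the counts were 61 and 6, 31 and 53, and 66 and 5. At an adjusted p under 0.05 alone, 1892 genes were higher and 2700 lower of 12180 tested without Chd4-ECko replicate 1. Leaving out any other single library gave 300 to 410 higher and 32 to 128 lower. In all 6 of these fits, 30 of the 53 higher genes and 4 of the 55 lower genes kept an adjusted p under 0.05. Without the fold threshold, 248 of the 754 higher and 17 of the 405 lower genes kept it, so most of these calls depended on single libraries. A fit of the 2 groups alone gave 37 higher and 4 lower genes past both thresholds. At an adjusted p under 0.05 alone it gave 161 and 4 of 11848 genes.

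Itih4, Ndrg1, Upb1 and Fads2 had been picked out as leading genes of this same comparison, and they rose in Chd4-ECko non-EC cells. Their values describe that rise and do not test it independently. Each is also counted in a gene list below. Itih4 encodes a plasma protein of the inter-alpha-trypsin inhibitor family that liver secretes (ENSMUSG00000021922, GRCm39 chr14:30608378-30624310, plus strand). It was at 15.1, 14.0 and 18.2 TPM in controls and 44.1, 38.8 and 50.4 TPM in Chd4-ECko, a ratio of means of 2.82 (log2 fold change 1.44 ± 0.14, adjusted p = 0.0033). Every Chd4-ECko library was above every control, as for 15.8% of all genes tested. Ndrg1, a gene induced by low oxygen and by metabolic stress (chr15:66801166-66841835, minus strand), was at 51.0, 47.9 and 55.5 TPM in controls and 100.5, 104 and 113 TPM in Chd4-ECko (1.03 ± 0.11, adjusted p = 0.0033). Upb1, which encodes the last enzyme of pyrimidine breakdown (chr10:75236949-75279771, plus strand), was at 7.31, 6.93 and 8.18 TPM against 15.6, 18.3 and 16.4 TPM (1.07 ± 0.11, adjusted p = 0.0033). Fads2, the delta-6 desaturase of polyunsaturated fatty acid synthesis (chr19:10038130-10079203, minus strand), was at 168, 152 and 182 TPM against 276, 298 and 301 TPM (0.80 ± 0.09, adjusted p = 0.0033). Replicate 1 was above every control for all 4, and each kept an adjusted p under 0.05 whichever single library was left out.

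**Figure D2:**
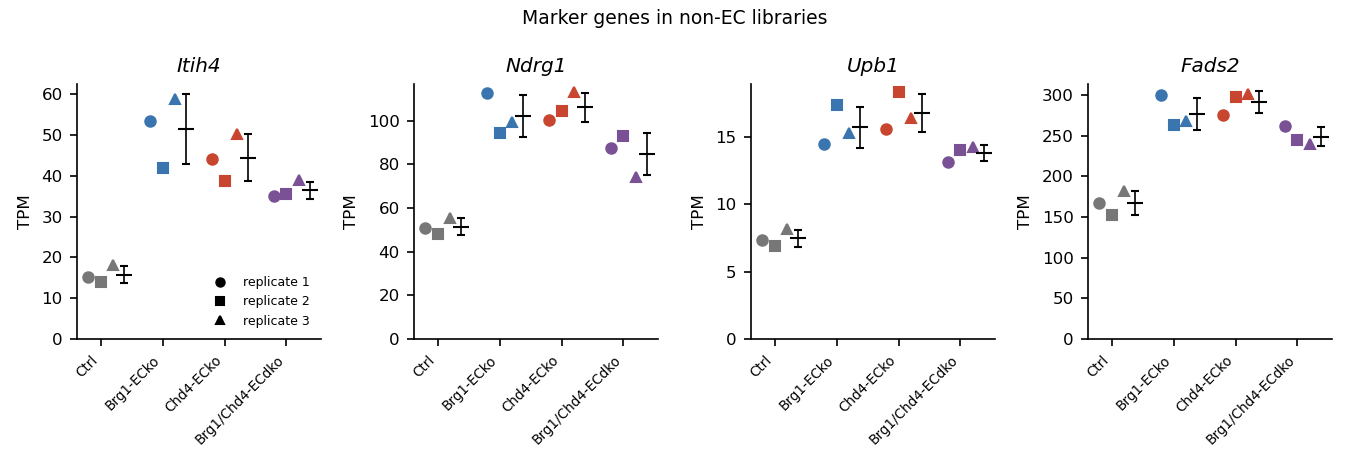
TPM (vertical, from 0) of Itih4, Ndrg1, Upb1 and Fads2 in each non-EC library of 4 genotypes, with the mean and SD of 3 replicates in black. The Chd4-ECko libraries lie above all controls for each gene, as do those of Brg1-ECko and Brg1/Chd4-ECdko.

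Many genes of hepatoblasts rose. Of 30 plasma protein and apolipoprotein genes, 22 rose and none fell, beside 6.17% of all genes higher, with a median log2 fold change of 0.76 beside 0.005 for all genes tested. Apoa1, the main protein of high-density lipoprotein, was at 1295, 1397 and 1495 TPM in controls and 2642, 2451 and 2675 TPM in Chd4-ECko (0.89 ± 0.12, adjusted p = 0.00425). Apom, another apolipoprotein, was at 371, 447 and 429.6 TPM against 790.3, 847 and 892 TPM, and Apoa2 rose by 0.85 on the log2 scale. Neither group overlapped the other for these genes, beside 15.8% of all tested genes with every Chd4-ECko library above every control. Of 13 hepatoblast markers, 9 rose, 6 of them whichever library was left out. Afp, Ttr, Apoa1, Ahsg and Serpina1a of these 9 are also among the 22 plasma protein genes, so the 2 lists are not separate evidence. Hnf4a and Dlk1 are counted again in lists below, as are Ambp and Plg of the plasma proteins. Afp, the fetal counterpart of albumin, went from 7808, 7857 and 8506 TPM to 15780, 11340 and 11770 TPM (0.67 ± 0.18, adjusted p = 0.0461). Afp and Alb were named after their values were seen, and Afp lost its call in 10 of 17 alternatives (highest adjusted p 0.147). Alb was at 5564, 5779 and 6475 TPM in controls and 11820, 8192 and 7179 TPM in Chd4-ECko, which missed the threshold (adjusted p = 0.0885). Both were highest in replicate 1, and the median difference of the plasma protein list was 0.95, 0.72 and 0.69 in replicates 1, 2 and 3. Of the 22 plasma protein genes that rose, 15 passed whichever library was left out, beside 248 of all 754 higher genes. Without Chd4-ECko replicate 1, 1 gene of that list fell, beside 2700 lower of the 12180 genes tested in that fit.

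Among the 19 liver transcription factors tested, 6 rose, with Hnf4a, Foxa2, Foxa3, Cebpa and Creb3l3 among them, and none fell, beside 6.17% of all genes higher. Foxa3 was at 15.0, 15.4 and 14.3 TPM in controls and 25.4, 31.2 and 26.3 TPM in Chd4-ECko (0.84 ± 0.11, adjusted p = 0.00425). Foxa2 was at 12.4, 13.7 and 12.8 TPM against 26.8, 24.9 and 22.1 TPM (0.87 ± 0.13, adjusted p = 0.006). Hnf4a, the nuclear receptor that holds the hepatocyte programme, was at 71.2, 55.5 and 78.6 TPM against 143, 103 and 115 TPM (0.81 ± 0.20, adjusted p = 0.0318). No Chd4-ECko library overlapped the controls for any of these 3, beside 15.8% of all tested genes with every Chd4-ECko library above every control. Foxa2, Foxa3 and Cebpa passed in every fit with a library left out, whereas Hnf4a and Creb3l3 did not, and the count of 6 ranged from 3 to 6 over these fits. Without Chd4-ECko replicate 1, 1 of the transcription factors fell, beside 2700 lower of the 12180 genes tested in that fit. A larger share of hepatoblasts in the fraction and more of these RNAs per hepatoblast cannot be told apart in bulk RNA.

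Part of each metabolic gene list of hepatoblasts rose, beside 6.17% of all tested genes. Amino acid catabolism had 14 of 27 genes higher (median 0.61), among them Fah, Gstz1, Hgd and Hpd, which carry out successive steps of tyrosine breakdown. Fah was at 16.1, 16.7 and 20.3 TPM in controls and 28.3, 33.3 and 36.5 TPM in Chd4-ECko (0.85 ± 0.14, adjusted p = 0.00753). Cholesterol synthesis and uptake had 15 of 24 genes higher (median 0.55). These ran from the transcription factor Srebf2 through Mvk, Mvd, Fdps and Fdft1 to Dhcr7. Fdps, which makes farnesyl pyrophosphate, was at 253, 260.2 and 266 TPM against 414, 458 and 534 TPM (0.84 ± 0.11, adjusted p = 0.00425). Fatty acid synthesis and desaturation had 9 of 22 higher, including Fasn, Srebf1, Dgat2 and both Fads1 and Fads2. Scd1, the delta-9 desaturase, showed a larger fold, from 62.0, 47.5 and 62.6 TPM to 169, 132 and 116 TPM (1.26 ± 0.20, adjusted p = 0.00734). Fatty acid oxidation and ketone synthesis had 7 of 23 higher (median 0.32), and pyrimidine breakdown and the urea cycle 4 of 13, Upb1, Asl, Nags and Glul. In none of these lists did a gene fall with all libraries. Without Chd4-ECko replicate 1 there were 2 cholesterol genes that fell, beside 2700 lower of the 12180 genes tested in that fit. The 6 inter-alpha-trypsin inhibitor genes tested included 4 that rose, Itih1, Itih3, Itih4 and Ambp. Of all 754 higher genes, 248 passed in each of the 6 fits that omitted 1 library. Over these fits, 7 of the 14 amino acid genes, 8 of the 15 cholesterol genes, 4 of the 9 in fatty acid synthesis, 3 of the 7 in fatty acid oxidation, 2 of the 4 in pyrimidine breakdown and the urea cycle and 2 of the 4 inter-alpha-trypsin inhibitor genes always passed. The counts reached 7, 8, 4, 3, 2 and 2 at the lowest, with control replicate 2 among the libraries whose omission gave the lowest count in all but pyrimidine breakdown and the urea cycle (control replicates 1 and 3 and Chd4-ECko replicate 3). A fit of the 2 compared groups alone left fewer calls, 18 plasma protein genes of 30, 5 amino acid genes of 26 tested, 6 cholesterol genes of 24, 4 of 22 in fatty acid synthesis, 3 of 23 in fatty acid oxidation and 2 of 13 in pyrimidine breakdown and the urea cycle.

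Complement and acute phase genes had 4 of 18 higher, C3, Cfb, C1ra and Mbl1. C3 was at 354, 296 and 415 TPM in controls and 796, 619.8 and 625 TPM in Chd4-ECko (0.94 ± 0.19, adjusted p = 0.0155). In the plasminogen system 5 of 13 rose, with both the precursor Plg and its circulating inhibitor Serpinf2 among them, along with Plau, Anxa2 and Hpn. Without control replicate 2 the counts of these lists were 2 complement and 2 plasminogen genes, and those that passed whichever library was left out were C1ra, Cfb, Hpn and Serpinf2. Serpinf2 was at 295, 279.6 and 308 TPM against 576, 519 and 584 TPM (0.93 ± 0.13, adjusted p = 0.00473). Of 16 NF-kappaB response genes 4 rose (Cxcl1, Bcl3, Ikbke and Icosl), none of which passed with every library left out or in the fit of the 2 groups alone. Of 25 interferon response genes 2 rose, Usp18 and H2-K1, and Ifit2 fell, shares near those of all tested genes (6.17% and 3.31%). Usp18, which dampens interferon signalling, was at 4.35, 5.24 and 4.91 TPM against 12.3, 9.14 and 10.8 TPM (1.00 ± 0.15, adjusted p = 0.006). H2-K1, a class I histocompatibility gene, rose by 0.82 on the log2 scale.

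**Figure D3:**
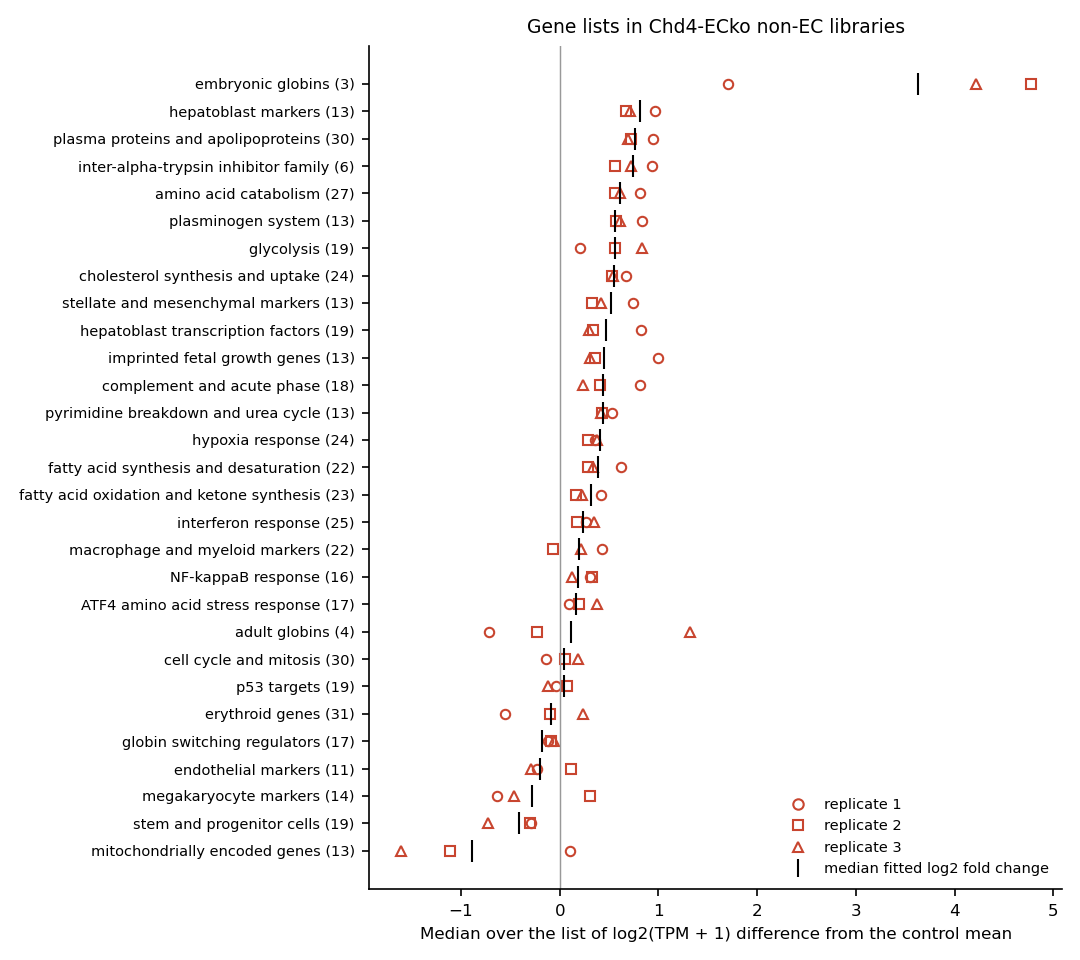
For each gene list (number of genes tested in brackets), the median log2(TPM + 1) difference from the control mean in each Chd4-ECko non-EC library (red symbols) and the median fitted log2 fold change (black bar). Plasma protein, hepatoblast and amino acid lists lie to the right of 0 in all 3 libraries and furthest in replicate 1, glycolysis is lowest in replicate 1 (0.21), and embryonic globins and mitochondrially encoded genes separate replicate 1 from replicates 2 and 3.

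Low-oxygen and glycolysis genes moved in part. Of 24 hypoxia response genes, 5 rose (Ndrg1, Bnip3, Egln1, P4ha2 and Bhlhe40), beside 6.17% of all tested genes higher. Bnip3l, a mitophagy receptor used by maturing erythroid cells, fell. That single fall was a share near the 3.31% of all genes lower, and it did not pass with every library left out. Egln1, the oxygen sensor that marks HIF1A for destruction, was at 34.9, 37.0 and 32.1 TPM in controls and 51.3, 53.8 and 53.2 TPM in Chd4-ECko (0.60 ± 0.11, adjusted p = 0.0102). Of 19 glycolysis genes 6 rose, with Aldoc, Pgk1, Pgam1, Ldha and Ldhb among them. The list's median difference was 0.21, 0.56 and 0.83 in replicates 1, 2 and 3, the reverse of the order seen for plasma proteins. Ldhb alone of the 6 passed with every library left out, and the count was 12 without Chd4-ECko replicate 1 and 1 without replicate 2 or 3. Without replicate 1, 8 hypoxia genes rose and 4 fell, beside 1892 higher and 2700 lower of the 12180 genes tested in that fit. When any 1 of the other 5 libraries was left out, 3 rose and none fell. In the stress lists, beside 6.17% of all tested genes higher, 2 of 17 ATF4 targets (Trib3 and Psph), 2 of 19 p53 targets (Bbc3 and Tnfrsf10b, with Ccng1 lower) and 1 of 19 immediate-early genes (Jund) rose. Of these Bbc3 alone passed with every library left out, and no ATF4 target passed without control replicate 1 or 2 or Chd4-ECko replicate 2 or 3. In the cell cycle list of 30 genes, Ccnd1 rose and Mcm4 fell, shares near or below those of all genes. Sdc4, a cell-surface heparan sulphate proteoglycan, stood among the strongest calls with 69.0, 63.3 and 77.9 TPM against 171, 143 and 143 TPM (1.11 ± 0.13, adjusted p = 0.0039).

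The largest folds belonged to the embryonic globins, the globin genes of primitive red cells that are silenced as definitive erythropoiesis takes over in the fetal liver. All 3 rose. The bases before the start of 2 of them are shown because the genes rose together, as RefSeq gives them on GRCm38.p6, 250 before the start on the gene's strand, 5′ to 3′. Hbb-y lies on the minus strand (chr7:103853208-103853457) and Hba-x on the plus strand (chr11:32276350-32276599). Capitals mark, on either strand, 4 short motifs. Erythroid zinc finger factors are known to bind AGATAA. Factors of the Krüppel-like family are known to bind CCACCC. The factor NF-Y is known to bind CCAAT. The remaining motif, TGACCA, is taken up after the sequences. It overlaps with a CCAAT box in Hbb-y.
Hbb-y: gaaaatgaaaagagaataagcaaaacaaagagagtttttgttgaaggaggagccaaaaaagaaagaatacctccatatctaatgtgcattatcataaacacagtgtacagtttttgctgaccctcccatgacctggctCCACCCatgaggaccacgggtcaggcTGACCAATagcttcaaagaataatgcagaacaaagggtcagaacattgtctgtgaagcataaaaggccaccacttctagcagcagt
Hba-x: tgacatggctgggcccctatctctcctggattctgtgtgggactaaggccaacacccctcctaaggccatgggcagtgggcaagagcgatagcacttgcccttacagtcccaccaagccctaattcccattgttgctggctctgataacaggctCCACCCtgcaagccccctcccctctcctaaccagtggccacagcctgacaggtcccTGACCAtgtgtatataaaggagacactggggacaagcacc
TGACCA, the letters that BCL11A is known to bind in human fetal globin promoters, stood once in each and in 11.4% of the 32851 mouse promoter windows of the same length. CCACCC stood once in each and in 28.1% of all windows. Neither held AGATAA, found in 10% of windows, but other forms of a GATA site were not searched. TGATAA stands unmarked in the Hba-x window and, on the other strand, in the Hbb-y window. CCAAT, found in 33.8%, stood in the Hbb-y window. Of the other windows searched, those of the adult genes Hbb-bs, Hbb-bt, Hba-a1 and Hba-a2 and of Itih4 and Fads2 did not hold TGACCA, and that of Upb1 held it once. A match is no proof of binding.

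Hbb-y was at 5.69, 3.16 and 2.03 TPM in control non-EC cells and 30.5, 135 and 80.5 TPM in Chd4-ECko (log2 fold change 4.01 ± 0.54, adjusted p = 0.00455). Hba-x was at 12.2, 5.41 and 4.27 TPM against 23.8, 208 and 162 TPM (3.63 ± 0.68, adjusted p = 0.0123). Hbb-bh1 was at 12.0, 10.4 and 3.40 TPM against 21.4, 149 and 107 TPM (3.04 ± 0.68, adjusted p = 0.0245). Every Chd4-ECko library was above every control, as for 15.8% of all genes tested, but replicate 1 was the lowest of the 3 for each gene. Hbb-y and Hba-x passed with every single library left out and Hbb-bh1 did not, and 1 of the 3 passed in the fit of the 2 groups alone. The order of the 3 replicates was the same in LSECs, where the summed TPM of the 3 genes was 266, 1606 and 719 in Chd4-ECko and 17.6 to 29.5 in controls. Adult globins did not follow: their sum was 5268, 9506 and 2060 TPM in controls and 2685, 3426 and 10750 TPM in Chd4-ECko, and none of the 4 genes passed. No erythroid gene of 31 rose either. Bcl11a, a repressor of embryonic and fetal globins, fell by 0.49 on the log2 scale, from 68.6, 67.9 and 68.1 TPM to 48.9, 50.8 and 45.1 TPM (± 0.10, adjusted p = 0.0139). It was the 1 gene of 17 globin switching regulators that changed, a share near the 3.31% lower and 6.17% higher over all genes. It passed with every library left out but not in the fit of the 2 groups alone. Fewer Bcl11a-expressing cells and less RNA per cell cannot be told apart here. In Brg1-ECko non-EC cells Bcl11a was at 38.7, 44.1 and 46.3 TPM, Hbb-y was at 16.0, 11.2 and 4.14 TPM and Hba-x at 12.8, 5.07 and 5.58 TPM. Hbb-bh1 was at 1.58, 6.76 and 2.28 TPM there, lower in sign than in controls (log2 fold change -1.11).

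**Figure D4:**
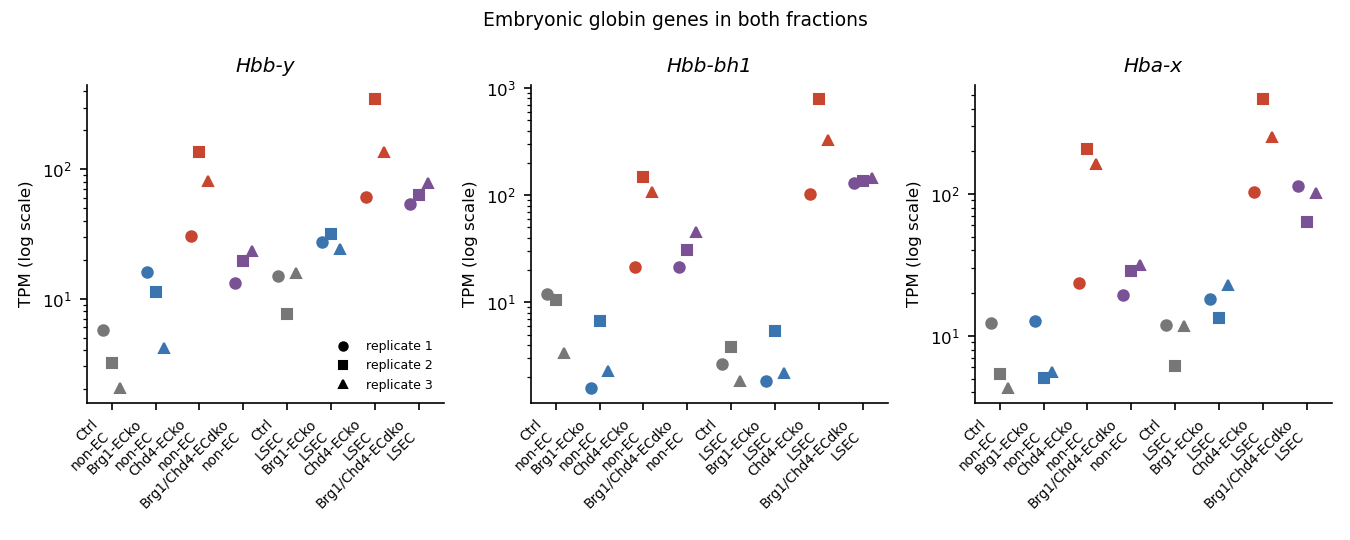
TPM (log scale) of Hbb-y, Hbb-bh1 and Hba-x in each library of 4 genotypes in the non-EC and LSEC fractions. Chd4-ECko libraries (red) lie above controls (grey) in both fractions, with replicate 1 the lowest and replicate 2 the highest of the 3.

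Other strong rises included genes at low level. Tcfl5, a basic helix-loop-helix gene of germ cells, was at 0.617, 0.3 and 0.72 TPM in controls and 3.01, 7.96 and 6 TPM in Chd4-ECko (2.04 ± 0.26, adjusted p = 0.00425). Trap1a, an X-linked tumour antigen gene (named after its values were seen), was at 0, 0.68 and 0.272 TPM against 1.32, 4.34 and 4.27 TPM (1.65 ± 0.32, adjusted p = 0.0146). Both were higher still in Chd4-ECko LSECs, Tcfl5 at 13.5, 17.8 and 11 TPM and Trap1a at 8.36, 19.5 and 9.02 TPM. Both also rose in Brg1/Chd4-ECdko non-EC cells, and neither passed in Brg1-ECko (adjusted p = 0.206 and 0.842). Trap1a was under 1 TPM in every control and Brg1-ECko non-EC library. It met the filter only through the genotypes where it was high, Chd4-ECko and Brg1/Chd4-ECdko. No conclusion is drawn from its adjusted p, and its call was lost in 5 of 16 alternatives (highest adjusted p 0.26). The summed endothelial markers of Chd4-ECko non-EC libraries lay within the control range, and what carried-over LSECs added to Tcfl5 and Trap1a was not tested. Rims4, best known from synapses, was at 8.67, 7.29 and 3.36 TPM against 33.4, 27.7 and 28.8 TPM (2.13 ± 0.29, adjusted p = 0.00425). Its Brg1/Chd4-ECdko values were lower, at 14.7, 9.34 and 10.6 TPM. Imprinted fetal growth genes had 3 of 13 higher, Dlk1, Cdkn1c and Nnat, beside 6.17% of all genes. Dlk1 is itself a hepatoblast marker, and Nnat did not pass with every library left out.

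Among the genes lower in Chd4-ECko non-EC cells, a few known from granulocytes, mast cells or monocytes are given here one by one, with no list of their own behind them. Ear2, a ribonuclease of eosinophil granules, was at 18.1, 25.6 and 29.2 TPM in controls and 4.55, 8.06 and 2.40 TPM in Chd4-ECko (-2.16 ± 0.36, adjusted p = 0.00816). Its near-identical relative Ear6 was at 13.1, 17.5 and 33.2 TPM against 5.77, 5.41 and 7.32 TPM, and reads of the pair may have been split between them. The eosinophil granule genes Epx (adjusted p = 0.0736) and Prg2 (adjusted p = 0.0885), named after their values were seen, did not pass. Cpa3, a mast cell protease, was at 11.4, 4.51 and 17.9 TPM against 1.72, 2.71 and 2.28 TPM (-1.76 ± 0.42, adjusted p = 0.0291). Il1rl1, the receptor for interleukin-33 on mast cells, eosinophils and type 2 lymphoid cells, was at 5.17, 5.13 and 5.58 TPM against 2.69, 2.22 and 1.25 TPM (-1.07 ± 0.19, adjusted p = 0.0102). Ccr2, a monocyte chemokine receptor, was at 4.69, 2.17 and 6.33 TPM against 1.68, 0.882 and 0.558 TPM (-1.36 ± 0.29, adjusted p = 0.0192). Control and Chd4-ECko values did not overlap for these genes apart from Prg2, beside 11.6% of all tested genes with every Chd4-ECko library below every control. Of 19 stem and progenitor genes 3 fell (beside 3.31% of all genes), Runx1, Cd48 and Ms4a3, none of which passed with every library left out.

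Nxpe2, Ear2, Pkhd1l1 and Il1rl1 were the 4 genes lower by over 1 on the log2 scale that passed whichever single library was left out. Nxpe2 was at 71.7, 89.3 and 69.0 TPM in controls and 42.4, 33.3 and 32.2 TPM in Chd4-ECko (-1.07 ± 0.16, adjusted p = 0.006). Pkhd1l1, which encodes a large surface protein, was at 3.25, 3.35 and 3.05 TPM against 1.62, 0.973 and 0.715 TPM (-1.03 ± 0.18, adjusted p = 0.00892). For Zfp367 and Tfrc, Chd4-ECko replicate 1 lay nearer the controls than replicates 2 and 3, as it also did for Pkhd1l1 and Nxpe2. Zfp367, a zinc finger gene, was at 20.9, 21.4 and 20.1 TPM against 14.5, 7.40 and 5.46 TPM (-1.21 ± 0.26, adjusted p = 0.0193), and its adjusted p was at most 0.215 over the alternatives. Tfrc, the transferrin receptor through which erythroblasts take up iron, was at 491, 527 and 442 TPM against 374, 168 and 114 TPM (-1.33 ± 0.32, adjusted p = 0.0306). Ermap, a red cell membrane protein gene, fell as well, and 3 of 31 erythroid genes fell in all, beside 3.31% of all genes, none of them in every fit with a library left out. Cpeb4, Osgin2 and Zfp667 fell as well. Of 14 NuRD genes Hdac2 fell and Chd3 rose, and of 18 BAF genes Brd7 fell, shares near those of all genes (3.31% lower and 6.17% higher), and none of the 3 passed with every library left out.

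**Figure D5:**
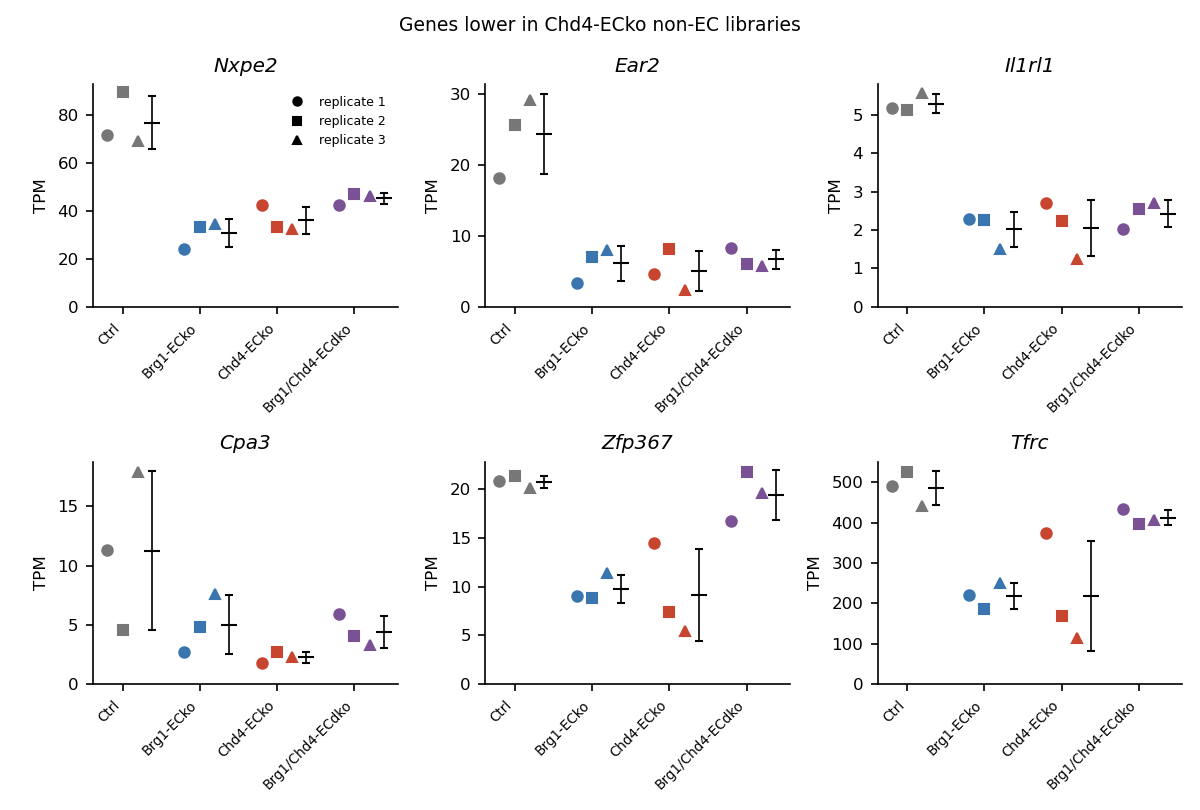
TPM (vertical, from 0) of Nxpe2, Ear2, Il1rl1, Cpa3, Zfp367 and Tfrc in each non-EC library of 4 genotypes, with the mean and SD of 3 replicates in black. For Zfp367 and Tfrc, Chd4-ECko replicate 1 (14.5 and 374 TPM) lies between the controls and replicates 2 and 3, whereas Ear2 and Cpa3 are low in all 3.

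Among markers of other cells, none of 22 macrophage and myeloid genes, 14 megakaryocyte genes or 11 endothelial genes tested passed in either direction, and their median log2 fold changes were 0.20, -0.28 and -0.20. The macrophage complement gene C1qa was at 32.8, 14.4 and 24 TPM in controls and 51.0, 34.9 and 45.8 TPM in Chd4-ECko (adjusted p = 0.0738). Of 13 stellate and mesenchymal genes, all were higher in sign and 1, Dcn, rose, a share near the 6.17% of all genes, and Dcn lost its call in 7 of 16 alternatives. With a replicate block 5 of the 13 rose, beside 920 of all 12223 genes. With the length trend removed 3 rose, beside 928 of 12223, and with the compared groups alone none, beside 161 of 11848. The list summed to 65.7 to 125 TPM in control non-EC, 118 to 231 TPM in Chd4-ECko non-EC and 1969 to 2411 TPM in control LSEC libraries. TPM are shares of a fixed total, so those of 1 cell type fall when another takes more.

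Further comparisons set these changes against the other genotypes and the other fraction. In Brg1-ECko non-EC cells, set against the same controls, 24 of 30 plasma protein genes, 18 of 27 amino acid genes and 17 of 24 cholesterol genes rose, with 8.91% of all tested genes higher. Itih4 was at 53.4, 42.0 and 58.9 TPM and Ndrg1 at 113, 94.3 and 99.2 TPM in Brg1-ECko. In Brg1/Chd4-ECdko, where 0.565% of genes were higher than in controls, 3 plasma protein genes, 0 amino acid genes and 3 cholesterol genes rose. The median log2 fold changes of these lists were 0.52, 0.45 and 0.60 there, beside 0.76, 0.61 and 0.55 in Chd4-ECko. There Itih4 was at 35.1, 35.5 and 38.9 TPM, Ndrg1 at 87.4, 93.0 and 74.1 TPM and Fads2 at 262, 245 and 239.5 TPM. All were above every control, Ndrg1 and Fads2 were below every Chd4-ECko library, and for Itih4 the lowest Chd4-ECko library (38.8 TPM) lay just under the highest Brg1/Chd4-ECdko one. The 4 markers rose in all 3 mutants, and these comparisons share the control libraries.

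The direct comparison of Brg1/Chd4-ECdko with Chd4-ECko asked whether the added loss of BRG1 moved the non-endothelial cells. By limma 0 of 12223 genes passed (smallest adjusted p = 0.217), although 2668 had an unadjusted p under 0.05. Without Chd4-ECko replicate 1 the count with a log2 fold change above 1 became 861, of which 845 were higher in Brg1/Chd4-ECdko, and with library weights it became 484. The embryonic globins stood at 13.3, 19.5 and 23.5 TPM for Hbb-y and 19.4, 28.8 and 31.4 TPM for Hba-x in Brg1/Chd4-ECdko, near Chd4-ECko replicate 1 and below replicates 2 and 3. Zfp367 was at 16.7, 21.8 and 19.7 TPM and Tfrc at 433, 397 and 407 TPM there. Tnnt2, a cardiac troponin gene, had one of the smallest p-values, with 10.1, 24.5 and 13.6 TPM in Brg1/Chd4-ECdko and 1.66, 5.45 and 2.90 TPM in Chd4-ECko (1.98 ± 0.35, adjusted p = 0.217). Hapln1, a matrix link protein gene, was at 5.42, 15.1 and 3.82 TPM against 0.791, 0.835 and 0.495 TPM (2.22 ± 0.38, adjusted p = 0.217).

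The effect of Chd4-ECko was then set against that in LSECs of the same genotypes, with 13775 genes tested for the difference itself. Fractions with the same number were taken to come from the same embryo, whereas this fit treated them as independent. It passed for 140 genes (1.02%), 78 with a higher and 62 with a lower effect in LSECs. With the embryo as a block it passed for 70 and 61. Among the hepatoblast and metabolic lists the difference passed for Mvk and, in glycolysis, Ldhb, and the call for Mvk was lost in 12 of 23 alternatives. Mvk, mevalonate kinase, was at 38.1, 34.8 and 42.2 TPM in control and 66.7, 61.7 and 75.8 TPM in Chd4-ECko non-EC cells. In LSECs it was at 35.1, 37.5 and 35.7 TPM and 27.9, 34.1 and 36.6 TPM (difference of effects -0.95, adjusted p = 0.046). Il1rl1 fell in non-EC cells and was at 0.427, 0.493 and 0.698 TPM in control and 1.29, 1.53 and 1.26 TPM in Chd4-ECko LSECs (difference 1.69 ± 0.24, adjusted p = 0.000944). Samsn1, a signalling adaptor of blood cells, went from 51.4, 41.6 and 56.0 to 38.0, 28.8 and 17.6 TPM in non-EC cells and from 5.11, 5.61 and 6.67 to 15.9, 20.9 and 17.8 TPM in LSECs (difference 2.35 ± 0.32, adjusted p = 0.000888). Car1, a carbonic anhydrase of erythroid progenitors, was at 16.4, 21.1 and 21.3 TPM in control and 14.5, 22.9 and 15.5 TPM in Chd4-ECko non-EC cells. In LSECs it was at 1.18, 1.15 and 0.340 TPM against 20.2, 58.8 and 18.1 TPM (difference 4.13 ± 0.54, adjusted p = 0.000888). The counts with a log2 difference above 1 ranged from 15 without control LSEC replicate 2 to 1028 without Chd4-ECko non-EC replicate 1, beside 95 with all libraries.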

How the data were processed

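The series holds 24 RNA-seq libraries of mouse liver at E12.5, with 3 for each of 4 genotypes in 2 fractions. Per the paper's methods, livers were digested with enzymes in the presence of transcription and translation inhibitors, red cells were lysed, LSECs were selected with CD146 MicroBeads, and libraries (poly-A selected, per the labels) were read in pairs and aligned to GRCm39 in CLC Genomics Workbench (version not given in the sources used here). The authors deposited TPM for 25361 genes, which sum to 1000000 in each library. Per the labels the 24 libraries share 1 batch. The 8 columns of group means were not used. TPM keep no depth, so no interval of counting error or detection limit was computed.

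TPM were analysed as log2(TPM + 1), with genes kept at 1 TPM or more in at least 3 of the 12 non-EC libraries (of 24 for the comparison of fractions). limma 3.58.1 in R 4.3.3 fitted a mean per genotype and fraction with a trended prior, and p-values were adjusted over all genes tested by the Benjamini-Hochberg method. The added 1 TPM shrinks the fold changes of genes at low level, and errors after ± are standard errors (n = 3 per group). Following the study's thresholds, DEGs had an adjusted p under 0.05 and a log2 fold change above 1 in either direction; rose and fell mean an adjusted p under 0.05. Gene lengths are the union of exons in GENCODE vM39 for the 12221 tested genes that matched. Promoter sequences came from the RefSeq tables (GRCm38.p6), in which 9 of 11 genes sought were found. The fit was tested beforehand on artificial data.

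Genes were named by a rule: the 4 markers, per direction 10 called genes with the smallest p, of each of 35 gene lists the 3 members with the smallest p, Chd4, Smarca4, and 5 genes for each further comparison. List members past the threshold are also named (some genes are not reported here), and Afp, Alb, Hnf4a, Epx, Prg2, Cpa3 and Trap1a were named after their values were seen. The members, lists and tests were chosen with earlier results of these data known. Per the paper, the 3 libraries of a group came from separate embryos and each liver was divided into both fractions. Deviations of same-numbered libraries of a genotype correlated across the fractions at 0.124 to 0.411 (all 12 pairs above 0.1, against 1 of 24 with different numbers). Such libraries were therefore taken to share an embryo, and a fit with the embryo as a block was added after seeing the data. Y-linked RNA differed between the fractions in Chd4-ECko replicate 2 (non-EC 23.9 and LSEC 64.7 TPM) and Brg1/Chd4-ECdko replicate 1 (28.6 and 79.0 TPM). Whether embryos were pooled was not tested. Among non-EC genotypes, deviations of same-numbered libraries correlated from -0.327 to 0.504 (mean 0.127, 10 of 18 pairs above 0.1, against a mean of -0.067 and 8 of 36 for different numbers). Since not every pair was above 0.1, the fits of non-EC cells have no block. Alternatives tried were another pseudocount and filters, quantile normalization, TPM rescaled without mitochondrial and globin genes, no trend, library weights, a replicate block, fewer groups, no fold threshold, removal of the length trend and leaving out libraries.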

Additional observations from a re-analysis of the deposited data

Results flagged for a closer look

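A difference between the Chd4-ECko effect in LSECs and in non-EC cells (LSEC minus non-EC, log2) passed limma's test for 12 of the genes named. It was 1.69 for Il1rl1, 1.56 for Ccr2, 1.57 for Cpeb4, 1.96 for Tfrc, 2.9 for Cpa3 and 2.35 for Samsn1, all of which fell in non-EC cells. It was -0.95 for Mvk, -1.13 for Ldhb and -0.87 for Bbc3, which rose in non-EC cells, and 1.88 for Trap1a, which rose in both fractions. It was 2.28 for Nefh and 4.13 for Car1, neither of which passed in non-EC cells. The call was lost in 12 of 23 alternatives for Mvk, 10 of 23 for Bbc3 and for Tfrc, 12 of 22 for Cpa3, 13 of 22 for Trap1a and 8 of 22 for Ccr2.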

How the results depend on the processing

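The number of genes past both thresholds in Chd4-ECko against control, 108, was 199 with a pseudocount of 0.1 TPM, 71 with no filter on low values, 174 after quantile normalization, 807 with library weights (whose estimate did not converge), 41 with the compared groups alone, 1159 with no fold threshold, 0 with replicate 1 as the only Chd4-ECko library (the lone library is assumed to vary like the other groups, so few calls could be made) and 31 to 1014 with a single library left out. The 0 calls between Brg1/Chd4-ECdko and Chd4-ECko became 484 with library weights, 1 with the compared groups alone, and 0 to 861 with a library left out. The 95 genes whose effect differed between fractions became 1002 with library weights, 202 with the length trend removed and 15 to 1028 with a library left out. Removing the length trend and replicate 1 alone were chosen after seeing the data. With the length trend removed 40 genes were higher and 120 lower, and 29 and 45 of them were among the 53 and 55; plasma proteins still had 19 of 30 genes higher. TPM rescaled without mitochondrial and globin genes gave 37 and 60, quantile normalization 77 and 97 with the median of all genes at 0.045. With a replicate block the count was 161 for Chd4-ECko against control and 122 for the difference between fractions; across genotypes the libraries share only a number. With the embryo as a replicate block shared by both fractions, added after seeing the data, the latter was 94, and of the 12 named genes Bbc3 lost its call (adjusted p = 0.0588). Of the values of named genes under these alternatives, 1548 kept direction and side of the threshold, 399 lost the call (88 of them in the fit with replicate 1 alone), 25 gained it and 1 reversed: Car1, at -0.16 in non-EC cells, was 0.29 with library weights. Causes were not tested. With 3 libraries a group the smallest exact permutation p is 0.1, so single genes rest on limma's shared variance.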
